A study of Drosophila melanogaster with 3 samples.

Results

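The 85 genes described here encode the proteins of the cytoplasmic ribosome of Drosophila melanogaster. They are the protein-coding genes of the Ensembl annotation whose symbol starts with RpL, RpLP or RpS followed by a number and letters, out of 13945 protein-coding genes on X, 2L, 2R, 3L, 3R and 4. By symbol, 48 belong to the large ribosomal subunit and 37 to the small one. The rule leaves out sta, which encodes another small subunit protein, and forms with a hyphen such as RpL37-1, which are taken up only where the limits of the data are described. Each symbol was matched as the annotation spells it.

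Binding of D (Dichaete), a SoxB transcription factor with an HMG domain, was measured by chromatin immunoprecipitation and sequencing in whole embryos of mixed sex collected from 0 to 14 hours. All samples came from 1 transgenic strain that stably expresses D with a C-terminal GFP, and chromatin was precipitated with an antibody to GFP. There was 1 group of 3 biological replicates, with no other genotype, treatment or time. The peak lists rest on comparison with a control alignment, and the labels name neither its transgene nor the promoter that drives the fusion. In whole embryos, strong binding in few cells and weak binding in many cells cannot be told apart.

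Ribosomal protein genes are among the most strongly transcribed genes of dividing and growing cells, and each ribosome needs 1 copy of nearly every protein, so their output is held in balance. In flies most of them are Minute genes, whose loss of 1 copy slows growth and shortens bristles. Their promoters are known for the TCT initiator, a pyrimidine-rich start motif that takes the place of the usual initiator, and for sites of the factors DREF, which binds the DRE, and M1BP. D binds DNA in the minor groove and bends it, and the core that Sox proteins share is ACAAT. It is known for its roles in segmentation, in neural stem cells and in the midline and hindgut of the embryo.

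The main list, on the dm6 build, held 5047 peaks kept by the authors for their irreproducible discovery rate, here called IDR peaks. Each has a summit and a deposited signal value, with no stated scale and here taken as its height, which ran from 188 to 4534 with a median of 310. Of these summits, 1754 lay within 500 bp of a start site of a protein-coding gene. A member is called bound where an IDR summit lay within 500 bp of one of its own start sites. The IDR peaks were the 5047 highest regions of the pooled list that went into the IDR step. Any pooled region at the start of an unbound member therefore ranks lower by definition. Positions are given in bp from the start site, with negative values upstream. Read depth is unknown, as the lists give no counts. Replicate 1 stood apart from replicates 2 and 3: each list held 30000 regions, of which 819, 5703 and 5553 carried the highest −log10 q value of their list, and results are therefore also given by replicate.

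Sequences around the start sites are shown first for 4 members with high peaks, and for 2 duplicated pairs of which 1 copy was bound and the other was not. They are RefSeq sequence of Release 6, the build of the lists, written on the strand of the gene and running from 70 bases before the start base to 9 after it. That of RpL7 begins 55 bases before the start, so that little of the neighbouring transcript is included. Capitals mark TCTTT or CCTTT with its second base, the C, within 10 bases of the annotated start.
RpS27, chr3R:25247505-25247584, minus strand, bound: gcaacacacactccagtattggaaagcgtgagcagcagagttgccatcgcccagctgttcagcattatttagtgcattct
RpL7, chr2L:10200949-10201013, plus strand, bound: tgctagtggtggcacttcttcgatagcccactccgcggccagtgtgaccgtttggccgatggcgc
RpL23A, chr3L:1668645-1668724, minus strand, bound: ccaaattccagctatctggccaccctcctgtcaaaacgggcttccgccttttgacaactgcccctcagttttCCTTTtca
RpL28, chr3L:3222951-3223030, minus strand, bound: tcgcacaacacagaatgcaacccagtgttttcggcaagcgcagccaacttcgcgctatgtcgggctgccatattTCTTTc
RpS10b, chrX:19597961-19598040, plus strand, bound: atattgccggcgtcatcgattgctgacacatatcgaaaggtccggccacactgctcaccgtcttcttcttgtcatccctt
RpS10a, chr3R:27652690-27652769, plus strand, not bound: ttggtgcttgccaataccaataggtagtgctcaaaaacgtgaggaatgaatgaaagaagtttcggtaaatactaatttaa
RpS5a, chrX:17148255-17148334, minus strand, bound: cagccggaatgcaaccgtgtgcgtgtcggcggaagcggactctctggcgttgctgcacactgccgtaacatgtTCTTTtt
RpS5b, chr3R:14901554-14901633, minus strand, not bound: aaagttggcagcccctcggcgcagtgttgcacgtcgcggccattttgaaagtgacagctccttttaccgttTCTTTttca

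None of these 8 stretches holds ACAAT on either strand. The bound ones among them ran from 48.8% G and C in RpS27 to 63.1% in RpL7, and the unbound RpS10a and RpS5b stood at 35% and 51.2%. The initiator letters stood at the start of RpL23A, RpL28, RpS5a and RpS5b, of which RpS5b alone was unbound. No match to these letters was found at RpS27, RpL7, RpS10b and RpS10a.

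Bound members made up 62 of the 85 genes, or 72.9% (95% interval 62.2 to 82, exact binomial, for the counting error over genes alone). By the same rule 15.3% of all 13945 protein-coding genes were bound. The 62 genes carried 70 IDR summits, 1 each at 54 genes and 2 each at 8. No test was made between these shares, since genes are not replicates and the list was chosen with earlier results of these data known.

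Heights of the members' peaks spread over most of the list, from rank 192 for RpS27 to rank 4715 for RpL29. The 70 summits had signal values from 198 to 1249, with a median of 403 and quartiles of 296 and 614. The other 1684 start-site summits had a median of 343, quartiles of 244 and 580 and a maximum of 4534. Of the members' summits 29, or 41.4%, were in the highest quartile of the IDR list, against 31.8% of the other start-site summits.

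RpS27, which encodes a zinc-binding protein of the small subunit, had the highest peak of the family. Its summit lay on 3R at 25247516, at -2 bp, with a pooled signal value of 1249 and rank 192 of 5047. In the lists of replicates 1, 2 and 3 its signal values were 504, 356 and 401, and its ranks 38, 335 and 320. It is the member with the best rank in each of the 3 replicates. A start site of Nup37, a nuclear pore gene, also lies within 500 bp of this summit.

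Other members with high peaks had no region at all in the list of replicate 1. RpL7 on 2L had a signal value of 928 with its summit at 37 bp, and values of 303 and 316 in replicates 2 and 3, at ranks 468 and 545. RpL23A on 3L, whose protein lines the exit of the peptide tunnel, stood at 883 with its summit at -78 bp, with ranks of 567 and 800. These genes lay well within the top 1000 regions of replicates 2 and 3, and nothing was listed within 200 bp of their summits among the 30000 regions of replicate 1.

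The same held for 6 further members among the 10 highest. RpL28 had a signal value of 821, RpS10b 810, RpL14 809, RpL13A 788 and RpL32, a common reference gene of fly expression studies, 772. RpLP0, which forms the base of the stalk that recruits elongation factors, had 781, and its partners in the stalk, RpLP1 and RpLP2, had 468 and 312. Ranks of these 6 members of the highest 10 ran from 546 to 911 in replicate 2 and from 552 to 926 in replicate 3.

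**Figure D1:**
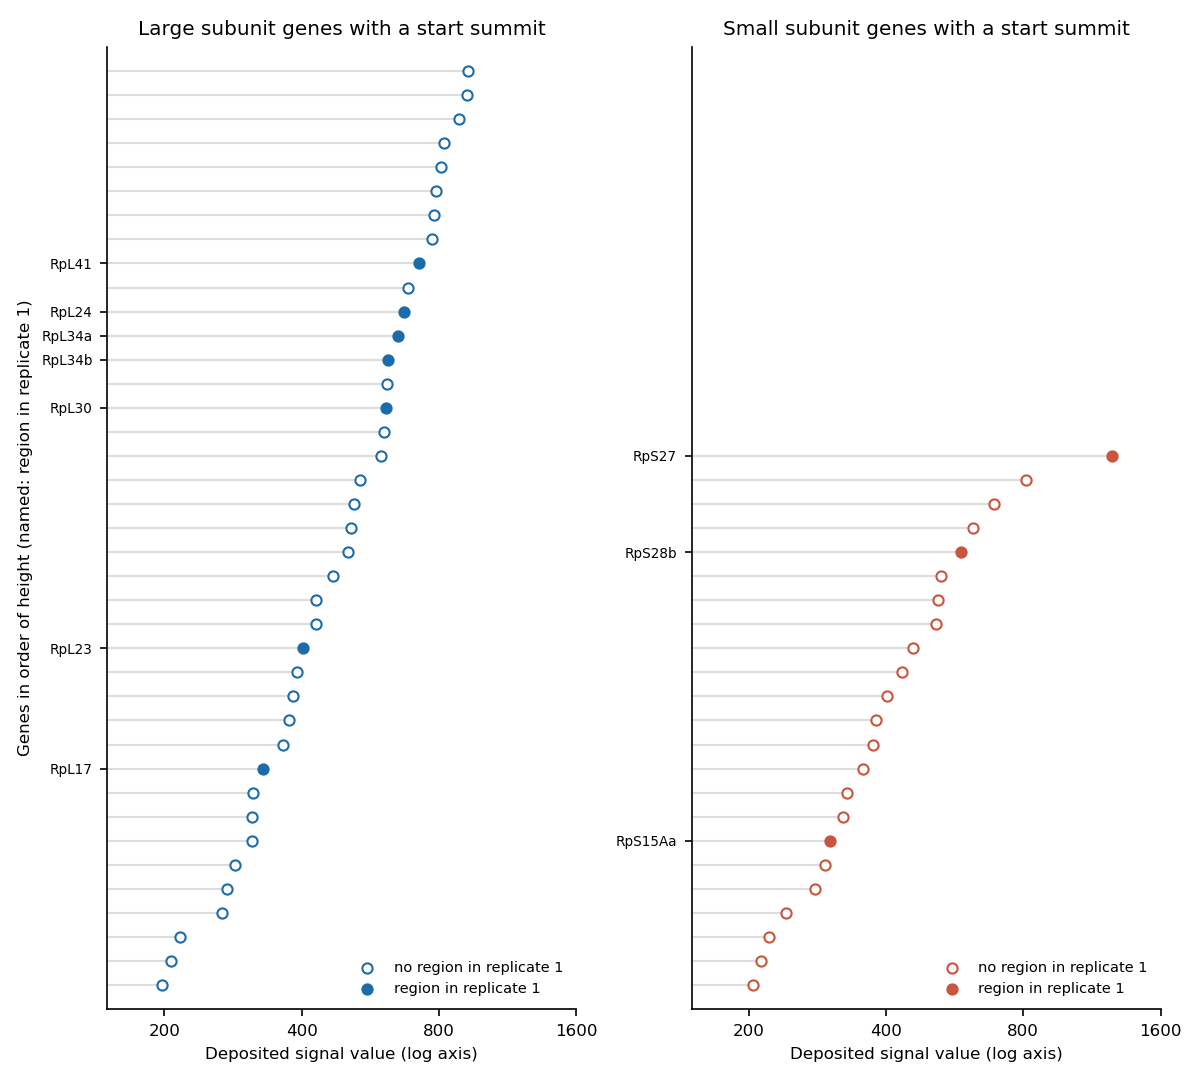
Deposited signal value (log axis) of the highest IDR summit within 500 bp of a start, for the 39 large and 23 small subunit genes that were bound, 1 point a gene in order of height. Filled points, named on the vertical axis, mark the 10 genes with a region within 200 bp in the list of replicate 1; most of the highest points, RpL7 at 928 among them, are open.

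At the lower end, RpL29 had a signal value of 198, RpS6, the classical substrate of S6 kinase, 205 and RpL35 207, just above the lowest value of the list. Just below it were the unbound members RpS26, RpL6 and RpL38, with pooled values of 179, 162 and 157 at their starts. The members are thus not cleanly split by height, and the limit between bound and unbound passes through them.

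Summits of the members lay close to the start. Their median position was -35 bp, with quartiles at -74.25 and -2 and a range from -316 to 70. Within 100 bp of the start lay 56 of the 70, or 80% (interval 68.7 to 88.6). For the other start-site summits the median was -137 bp with quartiles of -243 and -50, and 27.3% lay within 100 bp (interval 25.1 to 29.5). Upstream of the start lay 78.6% of the members' summits and 81.8% of the others.

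Single genes show how tight the position was. The summit of RpL7A lay on the start base itself. At -2 bp lay those of RpL35A and RpL17, the higher one of RpS27 and the lower one of RpS14a. Downstream positions reached 37 bp at RpL7, 36 at RpS15 and 70 at RpS2, a protein of the decoding region, and none lay further into a gene. By the highest summit of each gene, RpL23 at -311, RpL10Ab at -268 and RpS14a at -207 were far upstream. Each had a start site of another gene within 500 bp of that summit. RpL23 and RpS14a each had a second, lower summit nearer to the start, at -112 and -2 bp. Of the unbound members, RpS19b, RpS14b and RpS28a had the nearest IDR summits, at 876, 1158 and 1423 bp, well outside the limit of 500 bp. That of RpS14b was the summit of RpS14a at -2 bp from the RpS14a start.

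**Figure D2:**
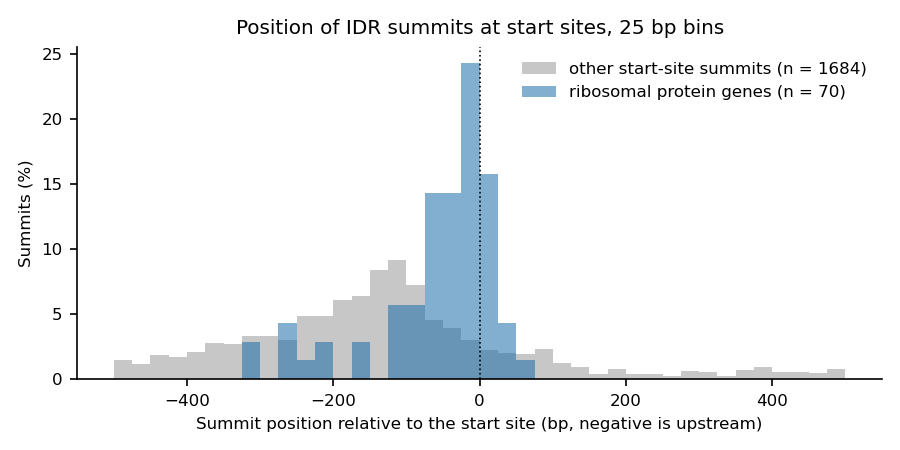
Share of summits (%) in 25 bp bins of distance from the nearest own start site, for the 70 summits of ribosomal protein genes and the 1684 other start-site summits. The members' summits pile up between 100 bp upstream and 50 bp downstream, while the others are broadest around their median of -137 bp.

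Many members share their promoter region with another gene. For 39 of the 70 summits, at 33 genes, a start site of a different protein-coding gene lay within 500 bp. Among these neighbours were Nelf-E at RpL14, eIF1 at RpL28, and Dref, which encodes the DRE-binding factor, at RpL13, where the summit lay at -14 bp from the RpL13 start with a signal value of 683. For the 31 summits with no other start nearby, at 30 genes, the median position was -11 bp, 30 of the 31 lay within 100 bp of the start, and the median signal value was 357. For the 39 with another start nearby these values were -61 bp, 26 of 39 and 459. Without shared summits 30 members were bound in place of 62, and at the other 32 binding at the member and binding at its neighbour cannot be told apart. Shared starts were not counted over all genes or at other start-site summits. Whether sharing is more common in this family, and how the 30 compare with all genes, is therefore not known.

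The 8 members with 2 summits included RpS27, RpL28, RpL34b, RpL27A, RpL23, RpS14a and RpS5a. The summits of all 8 were 199 to 210 bp apart. This spacing was common in the list as a whole, where 249 of 334 neighbouring IDR summits up to 500 bp apart, or 74.6%, fell in that range and the smallest gap was 199 bp. The lower summit stood at 255 beside 1249 at RpS27 and at 205 beside 821 at RpL28, while at RpL23 the pair stood at 402 and 368.

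Large subunit genes were bound more often in number than small subunit genes. Of the 48 large subunit genes 39 were bound, 81.2% (interval 67.4 to 91.1), and of the 37 small subunit genes 23, 62.2% (interval 44.8 to 77.5). The difference was 19.1 percentage points, with a 95% Newcombe interval from 0.0171 to 37.3, and no test was made over genes. Without symbols ending in a or b it was 13.8 points, with 36 of 44 large and 17 of 25 small subunit genes bound. By their highest summit, large subunit genes had a median signal value of 513 and a median position of -31 bp, and small subunit genes 380 and -24 bp. In the highest quartile of the list were 21 of the 39 bound large subunit genes and 8 of the 23 bound small subunit genes.

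Duplicated genes differed between their copies. In 8 cases the annotation gives a pair whose symbols differ only in a final a or b, and in 7 of these exactly 1 copy was bound. RpL34a and RpL34b were the pair with both copies bound, at 651 and 617. The bound copies of the other pairs were RpL10Ab with a signal value of 605, RpS10b with 810, RpS14a with 375, RpS15Aa with 302, RpS19a with 403, RpS28b with 583 and RpS5a with 521.

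Their unbound partners had lower regions or none in the pooled list, which the rule for bound genes fixes in advance. RpS14b, RpS5b and RpS10a had pooled regions of 104, 94.3 and 77.2 at their starts, and RpL10Aa, RpS15Ab, RpS19b and RpS28a had no pooled region within 500 bp. RpS5b, RpS10a and RpS19b are known in flies for expression mainly in the germline, whereas RpS5a, RpS10b and RpS19a are the broadly expressed copies. The bound copy lay on X in 6 of the 7 pairs and on 3L in the case of RpL10Ab. The unbound copy lay on 3R in 5 pairs and on 2R and X in the other pairs. Over all members, the pairs included, 12 of 13 on X and 14 of 22 on 3R were bound. Of all protein-coding genes on these arms 14.5% and 15.7% were bound. RpS14a and RpS14b are neighbours on X, from 7933742 to 7934677 and from 7934898 to 7935792.

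To see how far the start regions can be told apart by short reads, 19 words of 50 bases within 250 bp of each start were looked up in the genome. All 19 were unique at every member except RpS15Ab, with 17 of 19. How the authors treated reads with several matches was not tested.

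**Figure D3:**
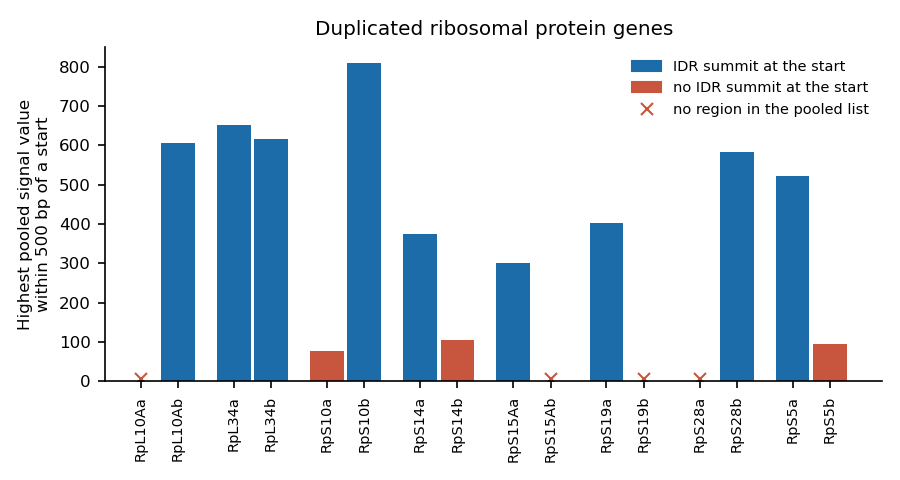
Highest deposited signal value of the pooled list within 500 bp of a start, for both copies of the 8 duplicated pairs; crosses mark genes with no region there. In 7 pairs 1 copy, such as RpS10b at 810, passed the threshold and the other, such as RpS10a at 77.2, did not.

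Of the 23 unbound members, 7 belonged to these pairs and 16 did not. In the pooled list 14 of the 23 had a region at a start, at ranks from 5330 for RpS26 to 20484 for RpS9, and 9 had none. Over all genes 38.9% had such a region in the pooled list, and over the members 76 of 85, or 89.4%. By its name this list holds background as well as peaks, so a region in it does not by itself show binding. Unbound members with a weak region at the start included RpS3, a protein of the mRNA entry channel, at 108, RpL36A at 134, RpL10, whose yeast counterpart joins the large subunit late, at 153, RpS30 at 76, RpL5 at 87.7, RpS9 at 66.8 and RpL40 at 72.5. RpL40 and RpS27A encode proteins made as fusions with ubiquitin, and RpS27A was bound at 380. Outside the duplicated pairs, members with no pooled region included RpL15, RpL21, RpS13 and RpS24.

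The members nearest to the centromeres were unbound, an observation made after their values were seen. On the long arms, 3 members lay within 2 Mb of the end of the assembled arm that faces the centromere, RpL15 on 3L at 0.84 Mb and RpL5 and RpL21 on 2L at 0.98 and 1.27 Mb, and none of the 3 was bound. Their nearest IDR summits lay 4355756, 392225 and 103408 bp away. Between 2 and 5 Mb, 2 of 3 members were bound, RpS10b at 3.94 Mb with a signal value of 810 and RpL30 at 4.51 Mb with 613. RpL38 on 2R at 4.52 Mb and RpL10 on 3L at 5.02 Mb were unbound, with the nearest IDR summit 45146 and 183972 bp away. Of all 171 protein-coding genes within 2 Mb of such an end 6 were bound, 3.51%, against 13.6% of the 859 genes between 2 and 5 Mb and 15.6% beyond. In replicate 1, RpL38, RpL5, RpL10 and RpL15 each had a region at the start, at ranks 1383, 1671, 2515 and 3845, while in replicates 2 and 3 regions there were listed for RpL10 alone, at ranks 3967 and 4720.

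The replicates differed strongly at these genes. Each replicate was first read by itself, with its own 5047 highest summits. Replicate 1 then had a summit at the start of 15 of the 85 members, or 17.6%, replicate 2 of 62, or 72.9%, and replicate 3 of 61, or 71.8%. The same share over all protein-coding genes was 7.59%, 16% and 15.3%. The mean over the 3 replicates was 54.1% ± 31.6 (SD, n = 3) for the members and 13% ± 4.67 for all genes. In replicate 1 all 15 highest summits per member lay upstream, at a median of -73 bp, and in replicates 2 and 3 the median was -22 and -8 bp.

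**Figure D4:**
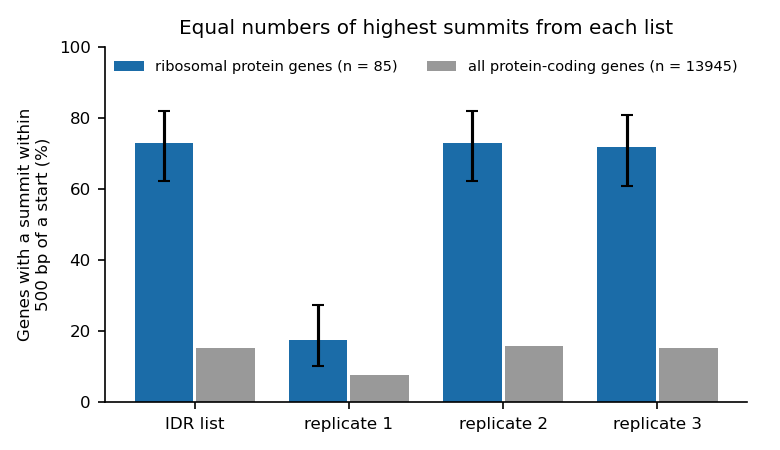
Share of genes (%) with a summit within 500 bp of a start among the 5047 highest summits of the IDR list and of each replicate's own list, for the 85 members with exact 95% binomial intervals and for all 13945 protein-coding genes. Members stand at 72.9%, 72.9% and 71.8% in the IDR list and replicates 2 and 3, and at 17.6% in replicate 1.

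Whole lists of 30000 regions were read next. A region lay within 500 bp of a start for 17 members in replicate 1, 79 in replicate 2 and 77 in replicate 3, which is 20%, 92.9% and 90.6%. Over all genes these shares were 18.5%, 47.1% and 46.2%. In replicate 1 the members' share was close to that of all genes here, whereas among its 5047 highest summits it was 17.6% against 7.59%. In replicates 2 and 3 it was above that of all genes in both readings. Of the members with a region in replicate 1, 11 were bound in the IDR list and 6 were not.

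The IDR summits were also looked up one at a time in each replicate, counting a summit as recovered where one of the replicate's 5047 highest summits lay within 200 bp. Recovered in replicate 1 were summits of 10 members, in replicate 2 of 60 and in replicate 3 of 58, and in all 3 of 10. Over all genes the shares bound with such recovery were 5.68%, 13.4%, 12.6% and 4.7%, and over the members 11.8%, 70.6%, 68.2% and 11.8%. No region within 200 bp was listed anywhere in replicate 1 for 57 of the 70 summits, or 81.4%, and for 58.1% of the others at start sites. Of other start-site summits with signal values between the members' quartiles, 57.7% had none.

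The 10 members recovered in all 3 replicates were RpS27, RpL41, RpL24, RpL34a, RpL34b, RpL30, RpS28b, RpL23, RpL17 and RpS15Aa. In replicate 1 the ranks at their highest summits ran from 38 for RpS27 to 860 for RpL30, with a median of 495. Recovery required a place among the highest summits of the replicate, so ranks at the end of the list were excluded by the rule. Counting any region of the replicate 1 list also gave 10 members. For other start-site summits with any region in that list the median rank was 771.5. RpL34b, at rank 163 in replicate 1, ranked 1076 and 2945 in replicates 2 and 3. RpS28b, with a summit at -36 bp, had ranks of 347, 1067 and 1368 and its summits in the 3 lists at 9554587, 9554586 and 9554615 on X. At RpL23 both IDR summits matched 1 region of replicate 1, at rank 467.

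Heights in replicates 2 and 3 followed each other. Across the highest summits of the 62 bound members the rank correlation of heights (Spearman's rho) was 0.83, and across 1638 other start-site summits it was 0.83 as well. Between replicate 1 and replicates 2 and 3 it was 0.24 and 0.21 over the 10 members listed in replicate 1, and 0.8 and 0.79 over 690 and 683 other start-site summits. These points share the libraries and are not independent, and 10 points are too few to set a value apart.

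The sequence at the members' summits differed in composition from that at other start-site summits. Within 100 bp to each side of the summit, the median GC content was 42.3% (quartiles 39.3 and 46) for the members and 33.8% (quartiles 29.4 and 38.8) for the others. The Sox core ACAAT, searched on both strands as all motifs were, was found in 19 of 70 windows, 27.1% (interval 17.2 to 39.1), against 52.2% of 1684 others (interval 49.8 to 54.6). Among windows with a GC content between the members' quartiles the shares were 6 of 35 and 121 of 260, or 17.1% and 46.5%. Windows were not matched for GC content within that range or for distance from the start. Whether composition bears on the gap was not tested. The longer forms ACAATG and ACAAAG, of which the first contains ACAAT, stood at 7.14% and 2.86% against 11.6% and 15%.

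Promoters were compared with those of all genes, most of them not bound, and not with those of other bound genes alone. From 250 bases before to 50 after the start of the canonical transcript, ACAAT was found in 38 of 62 bound members, 61.3%, in 18 of 23 unbound members and in 61% of all 13945 protein-coding genes. Among the members' windows centred on the 13 summits recovered in replicate 1 the core was found in 6, 46.2%, and among the 57 others in 13, 22.8%.

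The DRE and the M1BP site stood in the opposite direction. TATCGATA, the palindromic DRE, was found in 24.3% of the members' windows (interval 14.8 to 36) against 4.04% of the others, and its core ATCGAT, which TATCGATA contains, in 32.9% against 10%. GGTCACAC, the core of the M1BP site, was found in 11.4% (interval 5.07 to 21.3) against 1.78%. In promoters TATCGATA was found in 30.6% of bound members, in 6 of 23 unbound members and in 8.94% of all genes, and GGTCACAC in 14.5%, 3 of 23 and 7.54%. GAGAG, the repeat bound by GAGA factor, was found in 11.4% of the members' windows against 22.7%, the E-box CAGCTG in 5.71% against 9.74%, the Zelda site CAGGTA in 1.43% against 3.74% and the TATA box TATAAA in 25.7% against 39.8%. The last of these turned around among windows with a GC content between the members' quartiles, with TATAAA in 25.7% of the members' windows and 17.7% of the others, whereas TATCGATA stayed higher at the members there, at 20% against 6.15%, and GGTCACAC too, at 11.4% against 2.31%. In promoters of all genes these 4 stood at 30.2%, 17.9%, 6.45% and 45.3%, the DRE core at 22.7%, ACAATG at 15.9% and ACAAAG at 18.5%. In promoters of bound members the same motifs, in that order, stood at 19.4%, 8.06%, 4.84%, 45.2%, 41.9%, 16.1% and 8.06%. The TATA box and the first of the longer Sox forms were thus about as common there as in promoters of all genes. Promoter shares are not comparable with those of summit windows, which differ in length and place. A match of letters is a description and does not show that a factor binds there.

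**Figure D5:**
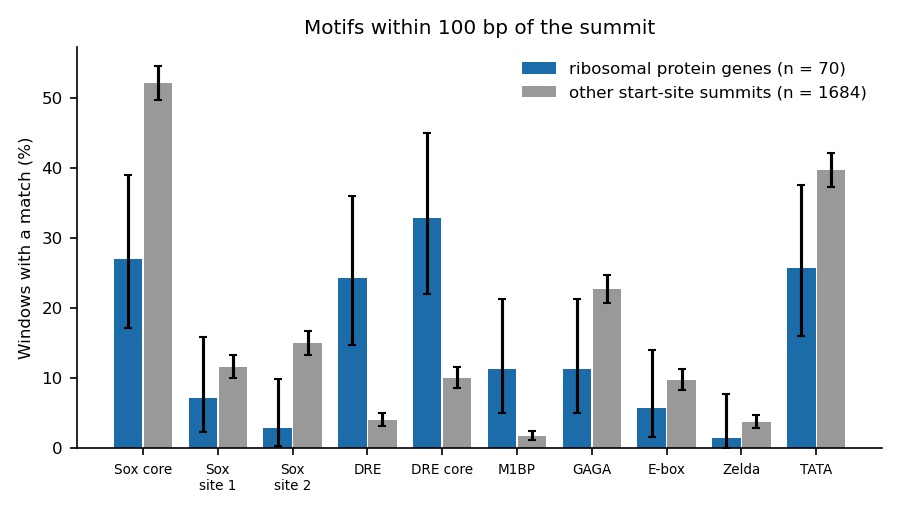
Share (%) of windows reaching 100 bp to each side of the summit that hold each motif on either strand, for the 70 summits of ribosomal protein genes and the 1684 other start-site summits, with exact 95% binomial intervals. Sox sites 1 and 2 are the 6-base forms ACAATG and ACAAAG; the Sox core is lower at the members (27.1% against 52.2%) and the DRE higher (24.3% against 4.04%).

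Examples show where these letters lie. The 30-base stretches below are on the strand of the gene, from 3 members with high peaks shown for TATCGATA and for ACAATG, with the motif in capitals (CATTGT is ACAATG read from the other strand).
RpL28, DRE, chr3L:3223034-3223063: tacgaaatgctTATCGATAgttgccctgcc
RpS10b, DRE, chrX:19597943-19597972: tcttaagataaTATCGATAtattgccggcg
RpS25, DRE, chr3R:11216328-11216357: ccaccaccaacTATCGATAggcaggcgagc
RpL13A, Sox, chr3R:5624370-5624399: ctcggctaactaACAATGtgaccgtataca
RpL30, Sox, chr2L:19009205-19009234: tctttcttttgcCATTGTcagccgacgaag
RpL10Ab, Sox, chr3L:11822542-11822571: gtattgaaacgtCATTGTctgccgacatcc

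The DRE of RpS25 lay at -3 bp from the summit and -56 bp from the start, that of RpL28 at -25 bp from its summit, and that of RpS10b at -55 bp. The Sox site of RpL10Ab lay at -26 bp from a summit that is itself at -268 bp from the start, that of RpL13A at -45 bp from its summit, and that of RpL30 at 52 bp, inside the gene.

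The TCT initiator was common in the family and rare elsewhere, whether or not a member was bound. TCTTT with its C within 10 bases of the canonical start was found at 40 of 85 members, 47.1% (interval 36.1 to 58.2), and at 3% of all protein-coding genes. Bound members had it at 32 of 62 and unbound members at 8 of 23. Counting CCTTT as well, a form added after the first was seen, gave 41 of 62 and 12 of 23, against 4.5% of all genes. In the duplicated pairs, TCTTT stood at 5 of 9 bound copies and 2 of 7 unbound copies. With CCTTT counted as well, these were 8 of 9 and 2 of 7, and unbound members outside the pairs stood at 10 of 16. Among other genes, 66 of the 379 with TCTTT at the start were bound, 17.4%, against 14.9% of the 13481 without. Among the members 32 of the 40 with TCTTT were bound and 30 of the 45 without.

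Other genes of protein synthesis and turnover were bound less often in number. Of 73 genes of mitochondrial ribosomal proteins 19 were bound, 26% (interval 16.5 to 37.6), and of 53 cytoplasmic translation factor genes 14, 26.4% (interval 15.3 to 40.3). Among aminoacyl-tRNA synthetase genes 7 of 20 were bound, among genes listed by symbol as ribosome biogenesis factors 11 of 32, and among proteasome subunit genes 4 of 40. The biogenesis list took in Rrp1, bound at 752, a symbol that in flies stands for a DNA repair gene. All values given for that list include it. The lists are not separate: eIF6 counts among translation factors and biogenesis factors alike, and the peak of 821 counted for eIF1 is that of RpL28. No test between the lists was made. Summits of these lists lay further upstream, at medians of -159 bp for mitochondrial ribosomal protein genes, -103 for translation factors, -130.5 for synthetases, -182 for biogenesis factors and -151 for the proteasome.

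Single peaks of those lists were higher than any of the members. The mitochondrial ribosomal protein gene mRpS10 had a signal value of 2781, mRpL41 2363 and the translation repressor gene eIF4EHP 1784. The peak at mRpS10 lay nearer to a start of Art3, at -126 bp beside -131 bp from mRpS10. That at eIF4EHP lay nearer to CG18428, at -182 bp beside -194 bp. At both peaks, binding at the named gene and binding at its neighbour cannot be told apart. The elongation factor gene eEF1gamma, at 1060, had its summit at -35 bp, the members' median position. TCTTT stood at the start of 2 of the 73 mitochondrial ribosomal protein genes. Recovery in replicate 1 was 11 of 19 summits for mitochondrial ribosomal proteins, 2 of 17 for translation factors, 1 of 8 for synthetases, 3 of 12 for biogenesis factors and 2 of 5 for the proteasome, beside 13 of 70 for the members. What sets replicate 1 apart at these genes was not tested.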

How the data were processed

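ChIP-seq peak lists of 3 biological replicates of D-GFP embryos were used, on the dm6 build. Per the labels, sonicated chromatin was precipitated with an anti-GFP antibody. Per the names of the deposited files, there is a list for every replicate and a pooled list of peaks and background that went into the IDR step. The list that came out of this step is the third kind. Caller, version and IDR threshold: not given in the sources used here. Peak height is the deposited signal value of the authors, with no stated scale, and served only to rank and describe peaks within a list. The deposited −log10 q values served only to count regions at their maximum, and the deposited summit offset gave the summit. The lists on the dm3 build were not used.

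Start sites are those of protein-coding transcripts in Ensembl release 115. Of 30593 annotated start codons 99.8% read ATG in the Release 6 sequence. Intervals are exact 95% binomial intervals over genes or summits and do not measure the spread between replicates. With 1 group, no test between conditions was made. The members and gene lists were chosen with earlier results of these data known. The rule for named genes took the 10 highest members, all unbound members, duplicated pairs, those in all 3 replicates, those with 2 summits and those at the limits of distance; others are examples picked with their values in view. Not every gene under the rule is reported here. The functions were tested on simulated data. Python 3.11.15, numpy 2.4.6, pandas 2.3.3, scipy 1.17.1, statsmodels 0.14.6 and matplotlib 3.10.9 were used.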

Additional observations from a re-analysis of the deposited data

How the results depend on the processing

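The count of bound members, 62, was 61 with 200 bp and 63 with 1000 bp as the limit, 49 for the upper 50% of IDR peaks, 58 where the called interval had to cover the start and 64 with 7 further genes (sta and RpL37-1 were bound). It was 30 without summits near another gene's start and 10 for peaks recovered in all 3 replicates. Leaving out 1 replicate, which here means keeping IDR peaks recovered in both others, gave 10 to 57, with 57 without replicate 1 and 10 without replicate 2 or replicate 3. The same step gave 77 to 92.3% of summits upstream (78.6% in full), medians of the signal value from 459 to 598 (403), medians of position from -63 to -31 bp and a difference between the subunits of 6.48 to 23 points (19.1). With the most upstream start alone, 64.3% of summits lay upstream. The median signal value of the upper 50% of peaks was 520, by construction.

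Motif shares depended on the window. Within 50 bp the Sox core stood at 15.7% against 31.8% of the other start-site summits and TATAAA at 10% against 25.4%. Within 200 bp the core stood at 68.6% against 74.5%, ACAATG at 20% against 22.1%, ACAAAG at 15.7% against 27.4%, GAGAG at 25.7% against 47% and TATAAA at 50% against 56.3%. CAGGTA stood at 11.4% against 8.55%, the opposite direction to that within 100 bp, and so did CAGCTG within 50 bp, at 4.29% against 3.92%. The DRE stood at 15.7% against 1.84% within 50 bp and at 31.4% against 8.37% within 200 bp. CCTTT as an initiator, the windows limited to a range of GC content and the split by replicate 1 were chosen after seeing the data. Of 85 alternatives, 67 stayed within the limits set for their result. These limits were 1.5-fold for counts, the SD between replicates of 34.21 bp for position, and otherwise the 95% interval of the result. The limit for position and the interval of the subunit difference, 0.0171 to 37.3 points, are wide, so staying within them shows little. Depth is unknown and limits what the absence of a region in replicate 1 shows. No paired analysis was possible because there is 1 group.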
